A study of Mus musculus with 18 samples.

Results

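Galanin (Gal), neuropeptide Y (Npy), vasoactive intestinal peptide (Vip), neurotensin (Nts), corticotropin-releasing hormone (Crh) and cholecystokinin (Cck) are 6 neuropeptides known to be induced in sensory neurons when their axons are injured. They were chosen by gene symbol, 6 of the 36737 genes measured, with 1 row for each symbol, and no row overlapped another gene in the table. Dorsal root ganglia (DRG) of lumbar levels L3–L5 hold the cell bodies of the sensory neurons that serve the hind limb. Bulk poly(A) RNA-seq was made from these ganglia in 18 CD1 mice, an outbred stock, with 1 library per mouse. The 3 groups, of 3 males and 3 females each, were Sham, Fracture (tibial fracture with an intramedullary pin, given vehicle) and Fracture+PDX (the same surgery, given the lipid mediator protectin DX). The labels name no engineered allele, the mice were adults, the fracture groups were sampled on day 3, and the day for Sham, the PDX dose for these mice and the side of the ganglia are not given in the sources used here. No label says that mice of a group came from separate cohorts or litters, so p-values measure the spread between these libraries only.

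In intact adult ganglia, neuropeptides are made in the cell body as precursors, cut and amidated in secretory granules, and released from both the peripheral and the central end of the axon. Each acts on G protein-coupled receptors. After nerve injury, a program led by transcription factors such as ATF3 changes which peptides a sensory neuron makes: Gal, Npy and Vip are classic members of the induced set, while the peptides of uninjured nociceptors, such as CGRP and substance P, are classically reduced. The comparisons asked whether a bone fracture changed these 6 transcripts in the ganglia, and whether PDX altered that change.

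Gal lies on chromosome 19 (3409915 to 3414544, minus strand), Npy on chromosome 6 (49822710 to 49829507, plus strand) and Vip on chromosome 10 (5639218 to 5647617, plus strand), all in mm10. Nts is also on chromosome 10 (102481756 to 102490486, minus strand), Crh on chromosome 3 (19693401 to 19695396, minus strand) and Cck on chromosome 9 (121489824 to 121495639, minus strand). The total count was between 63235040 and 82824942 per library, the DRG neuron markers Avil, Prph, Isl1 and Scn10a were detected in each library, and Xist and Ddx3y fitted the labelled sex in 18 of 18. Levels are given as CPM (counts scaled to the library's total after adjustment by its TMM factor), and between genes as FPKM, which is also divided by transcript length.

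Gal, Npy and Nts rose in Fracture+PDX against Sham, and to show the sequence around their starts, the 250 bases before the RefSeq start (GRCm38.p6) of Gal, Npy and Nts are given, with matches in capitals. Both strands were searched for the letters TGANTCA (AP-1, a site bound by JUN family dimers) and TGACGTCA (CRE, the cyclic AMP response element). These motifs do not contain each other. RefSeq rows were found for 5 of the 6 members, all but Crh.
Gal, chr19:3414545-3414794, minus strand: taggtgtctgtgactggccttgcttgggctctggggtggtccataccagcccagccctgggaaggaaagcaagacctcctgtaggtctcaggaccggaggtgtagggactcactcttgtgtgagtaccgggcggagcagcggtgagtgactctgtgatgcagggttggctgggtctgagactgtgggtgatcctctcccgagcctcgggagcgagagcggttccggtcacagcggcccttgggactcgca
Npy, chr6:49822460-49822709, plus strand: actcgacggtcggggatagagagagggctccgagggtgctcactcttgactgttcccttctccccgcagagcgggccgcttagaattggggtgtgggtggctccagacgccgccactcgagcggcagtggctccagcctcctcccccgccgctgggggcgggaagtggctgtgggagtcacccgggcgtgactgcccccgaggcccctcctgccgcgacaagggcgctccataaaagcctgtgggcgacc
Nts, chr10:102490419-102490668, minus strand: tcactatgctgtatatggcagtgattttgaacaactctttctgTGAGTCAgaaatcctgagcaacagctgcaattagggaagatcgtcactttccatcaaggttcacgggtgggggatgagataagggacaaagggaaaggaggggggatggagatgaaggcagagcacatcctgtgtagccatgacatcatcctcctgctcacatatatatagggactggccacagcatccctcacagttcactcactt
The Nts stretch held the AP-1 letters once, 207 to 201 bases before its start. Those letters were not in the same window of Gal, Npy, Vip or Cck, and the CRE letters were in none of the 5. Of the 32851 windows of this length in the RefSeq table, 6.75% held the AP-1 letters and 1.55% the CRE letters. A match describes letters only.

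Per transcript length, Gal was the highest of the 6 in each group, followed by Nts and Npy, with the other 3 far lower. In Sham, mean FPKM ± SD (n = 6) was 13.3 ± 4.10 for Gal, 3.56 ± 1.57 for Nts, 0.755 ± 0.422 for Npy, 0.178 ± 0.0799 for Cck, 0.050 ± 0.0429 for Crh and 0.0167 ± 0.0121 for Vip. The Gal range in Sham, 9.25 to 20.9 FPKM, lay above the Nts range of 1.07 to 5.53, whereas Nts and Npy, which reached 1.41, overlapped, as did Cck and Crh. In Fracture the means were 38.0 for Gal, 9.67 for Nts, 4.28 for Npy, 0.338 for Crh and 0.310 for Cck, and in Fracture+PDX they were 56.2, 14.98, 7.44, 1.05 and 0.180 in the same order. Crh thus stood beside Cck in Fracture, where their ranges overlapped (0.040 to 1.11 and 0.15 to 0.44 FPKM), and above it by its mean in Fracture+PDX, with ranges that again overlapped.

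**Figure D1:**
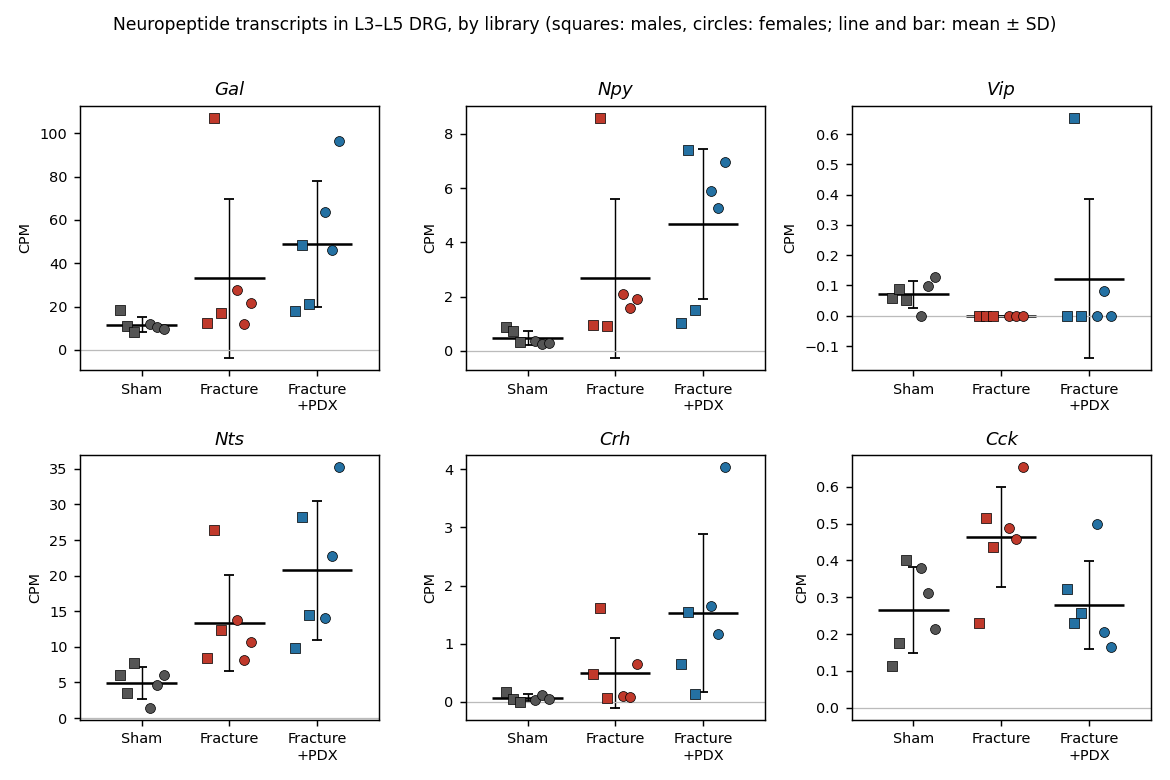
CPM (y axes, linear) of the 6 neuropeptides in each library of the 3 groups (x axes). Squares are males, circles females, the line is the mean and the bar ± SD over 6 libraries. For Npy and Nts all 12 fracture libraries lie above the 6 Sham libraries, 1 fracture male stands far above the rest of its group for Gal, Npy and Nts, and Vip is at 0 in the 6 Fracture libraries.

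Npy encodes a peptide that acts mainly through Gi-coupled receptors and dampens transmitter release. By edgeR it was the one member called in Fracture against Sham. The 6 Sham libraries held 0.889, 0.738 and 0.324 CPM in males and 0.355, 0.262 and 0.298 in females. In Fracture the males had 0.938, 8.59 and 0.925 CPM and the females 2.10, 1.59 and 1.90. The groups did not overlap, although the lowest Fracture library, at 0.925, was close to the highest Sham library, at 0.889. Fracture exceeded Sham by a log2 fold change of 2.51 ± 0.55 (SE), with an adjusted p of 0.0336 (edgeR quasi-likelihood test, Benjamini-Hochberg over 20659 genes). Without Fracture Male 2 the change was 1.70 and the adjusted p 0.0548. The call held in 3 of the 12 fits that each left out 1 library, namely those without Sham Male 1 (2.65), Fracture Male 1 (2.73) or Fracture Male 3 (2.73), and in the other fits the adjusted p went up to 0.0856 at changes of 1.70 to 2.57. It held in 5 of 9 other fits, and was lost with no filter on low counts (adjusted p 0.0663), with same-numbered mice paired by a replicate block (0.0678) and in limma on log2(FPKM + 1) (0.112, at a change of 1.30) and log2(FPKM + 0.1) (0.0693).

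In Fracture+PDX, Npy was at 1.04, 7.40 and 1.49 CPM in males and 5.89, 5.27 and 6.97 in females. Each of the 6 libraries was above each Sham library, and the 4 highest of them, at 5.27 to 7.40 CPM, were below the single high Fracture male. The log2 fold change over Sham was 3.29 ± 0.58, with an adjusted p of 0.0118 (edgeR). That call held in 12 of 12 fits with a library left out, at 2.89 to 3.60, and in 8 of 9 other fits, being lost with the replicate block (adjusted p 0.0603).

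Gal encodes the inhibitory peptide galanin, the classic marker of sensory neurons with cut axons. Sham males had 18.2, 10.9 and 8.11 CPM and Sham females 12.1, 10.6 and 9.46. Fracture males had 12.5, 107 and 16.99 CPM and Fracture females 27.8, 12.1 and 21.5, so that 3 of 6 libraries lay above every Sham library and 3 lay within the Sham range. The difference, 1.41 ± 0.55, did not pass (adjusted p 0.215, edgeR), and it was 0.64 without Fracture Male 2 (adjusted p 0.371). In Fracture+PDX, males had 17.9, 48.5 and 21.1 CPM and females 63.9, 45.9 and 96.6, and all but 1 male were above every Sham library. Gal rose in Fracture+PDX over Sham by 1.96 ± 0.40 on the log2 scale (adjusted p 0.0274). This call held without Sham Male 1 (2.21), Fracture+PDX Male 1 (2.17), Male 3 (2.14), Female 2 (2.005) or Female 3 (1.75), and was lost without any 1 of the other 7 libraries (1.83 to 1.99, adjusted p up to 0.0787). It was also lost in 2 of 9 other fits, the replicate block (adjusted p 0.120) and 1 fit of all 18 libraries (0.0580).

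Nts encodes neurotensin, which acts on the receptors NTSR1 and NTSR2. Its transcript stood at 6.05, 3.59 and 7.68 CPM in Sham males and at 1.45, 4.69 and 6.01 in Sham females. Fracture males had 8.48, 26.4 and 12.4 CPM and Fracture females 13.8, 8.19 and 10.7. No Fracture library overlapped Sham, yet the log2 fold change of 1.44 ± 0.38 did not pass the test across all genes (adjusted p 0.0741, edgeR). DESeq2 gave the same change, 1.44, with an adjusted p of 0.00632, the 1 of 9 other fits that called it. In the rest the adjusted p went up to 0.212. With a library left out, 0 of 12 fits called it (adjusted p 0.0679 to 0.155, edgeR). The change was 1.18 without Fracture Male 2. Fracture+PDX males had 9.84, 28.3 and 14.4 CPM and females 14.0, 22.8 and 35.2, again with no overlap with Sham. Here Nts rose by 2.09 ± 0.44 (adjusted p 0.0290, edgeR). The call held in 7 of the 12 fits with a library left out, and was lost without Sham Male 2 (2.02), Sham Female 2 (2.07), Sham Female 3 (2.18), Fracture+PDX Male 2 (1.93) or Fracture+PDX Female 2 (2.06), with adjusted p up to 0.0796. It was also lost in 2 of 9 other fits, with no filter (adjusted p 0.0569) and with the replicate block (0.0701).

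Crh encodes the releasing hormone best known from the hypothalamus, and was close to the detection limit in Sham. The Sham counts were 12, 4 and 0 in males and 3, 10 and 4 in females. Fracture males had 37, 113 and 5 counts and Fracture females 8, 6 and 54. The 3 higher Fracture libraries were above every Sham library, and the 3 others lay among the Sham values. Crh did not pass the filter on low counts in this comparison, and the mean log2 CPM was 1.84 higher in Fracture (two-sided exact permutation test, p = 0.0563, n = 6 and 6). The exact p was under 0.05 without Sham Male 1 (difference 2.09), Fracture Male 3 (2.18), Fracture Female 1 (2.07) or Fracture Female 2 (2.14). Without any 1 of the other 8 libraries it was above 0.05, up to 0.108. The difference fell to 1.34 without Fracture Male 2. In Fracture+PDX the males had 49, 121 and 8 counts and the females 122, 85 and 268, that is 0.659, 1.55, 0.128, 1.64, 1.16 and 4.03 CPM. Of these, 5 of 6 were above every Sham library, and the mean log2 CPM was 3.66 higher than in Sham (two-sided exact permutation test over libraries, p = 0.00433, not adjusted for other genes). Of the 6 libraries that the filter on low counts asked for, 5 were from Fracture+PDX and 1 from Sham, so Crh entered the edgeR fit mainly through the group in which it was high, and the fitted value is given as a description. It was 4.21 ± 0.76 on the log2 scale (adjusted p 0.0107, edgeR), at 3.80 to 4.90 with a library left out. On log2(FPKM + 1) the change was 0.85 (adjusted p 0.0556, limma), below those of Npy (2.06), Gal (1.81) and Nts (1.78), so that its rank among the members turned with the scale.

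Cck encodes cholecystokinin, a peptide known to oppose opioid analgesia. It was low in all groups, with 8 to 31 counts in Sham, 18 to 54 in Fracture and 11 to 37 in Fracture+PDX. Sham males had 0.115, 0.175 and 0.402 CPM and Sham females 0.3803, 0.312 and 0.213. In Fracture, males had 0.231, 0.515 and 0.437 CPM and females 0.487, 0.457 and 0.652, so that 5 of 6 lay above every Sham library. The log2 fold change over Sham was 0.79 ± 0.34 (adjusted p 0.226, edgeR), which did not pass. Fracture+PDX males had 0.323, 0.231 and 0.256 CPM and females 0.499, 0.205 and 0.165, close to Sham, with a difference of 0.08 ± 0.39 (adjusted p 0.947). The sign of that difference turned without Sham Male 1 (-0.07), Sham Male 2 (-0.0033) or Fracture+PDX Female 1 (-0.17).

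Vip encodes a peptide that raises cyclic AMP through VIPR1 and VIPR2. Sham counts were 4, 7 and 4 in males and 0, 8 and 9 in females, and Fracture counts were 0 in the 6 libraries. In Fracture+PDX 4 libraries were at 0, Female 2 had 6 counts and Male 2 had 51, or 0.654 CPM. Vip did not pass the filter in any comparison. In Fracture it was lower than in Sham by 1.68 in mean log2 CPM (two-sided exact permutation test over libraries, p = 0.0152, not adjusted for other genes), a size that depends on the prior count. In the edgeR fit with no filter the adjusted p over all genes was 0.108. Fracture+PDX against Sham gave a difference of -0.56 (exact p = 0.60). Without Fracture+PDX Male 2 the latter was -1.28 (exact p = 0.0476). A count of 0 allows up to 3 counts per library, against 4 to 9 in the Sham libraries that had any. How counts were made from reads is not given, and in the whole table the value 4 occurs more often (20795 values) than 3 (11071) or 5 (6807), so a 0 here means only that the gene is listed at 0. The library with 51 Vip counts also had the most counts of Dbh, an enzyme of sympathetic neurons, at 178, against 0 to 83 in the other 17 libraries. The part of sympathetic tissue in this value was not tested.

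**Figure D2:**
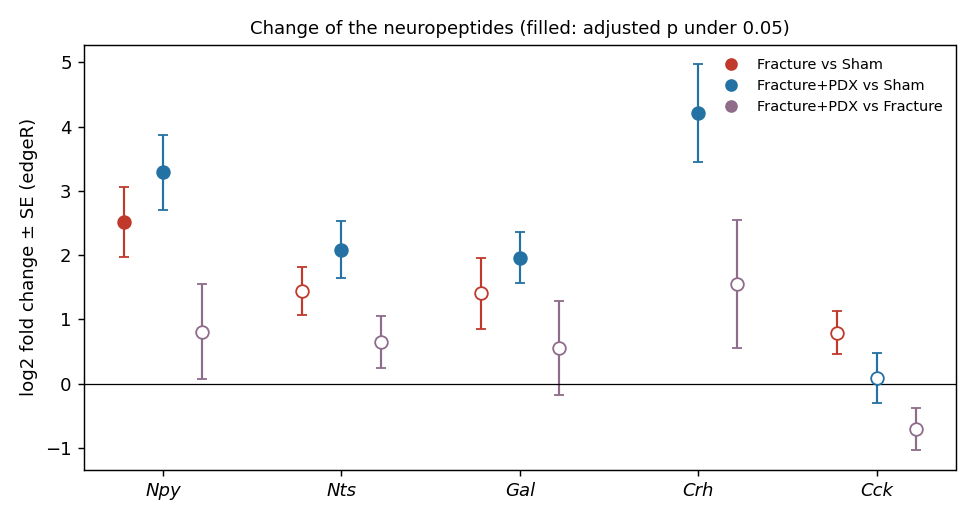
Log2 fold changes ± SE from edgeR (y axis) of the 5 members that passed the filter on low counts, for the 3 comparisons (colours). Filled points have an adjusted p under 0.05. Npy is filled for Fracture against Sham, Npy, Nts, Gal and Crh for Fracture+PDX against Sham, and none for Fracture+PDX against Fracture. Crh passed the filter mainly through the Fracture+PDX libraries, in which it was high, so its point is a description; both comparisons with Sham use the same 6 Sham libraries.

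By count, 1 of the 4 members tested rose in Fracture against Sham, where 1.09% of all genes tested were called higher, and 3 of the same 4 (Npy, Nts and Gal) rose in Fracture+PDX against Sham, where 2.17% were. None fell in either. Each call counted here was lost with the replicate block. The Npy call in Fracture, and those of Nts and Gal, were also lost without some single libraries. Crh is left out of this count, since it passed the filter mainly through its Fracture+PDX counts. Over all genes tested the median log2 fold change was 0.0021 and -0.0013. Members with every library above every Sham library were 2 in both comparisons, Npy and Nts, where 0.915% and 1.46% of all genes tested were so. These 2 comparisons share the Sham mice and are not independent of each other. The members, and the gene lists below, were chosen with earlier results of these data known, so such counts are descriptions.

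Fracture+PDX and Fracture were compared directly to ask whether PDX altered the peptides. None of the 5 members tested was called, and 0 of 20562 genes were, a background of 0%, with 1113 genes at an unadjusted p under 0.05 (edgeR); DESeq2 called 15 genes. The log2 differences were 0.55 ± 0.73 for Gal, 0.81 ± 0.74 for Npy, 0.64 ± 0.40 for Nts, 1.55 ± 0.997 for Crh and -0.71 ± 0.33 for Cck. Gal, Npy, Nts and Crh had higher means with PDX, and Cck a lower mean. Cck had an unadjusted p of 0.0496 and an adjusted p of 0.912, with 3 of 6 Fracture+PDX libraries below every Fracture library. No member had every Fracture+PDX library above every Fracture library, which 0.165% of genes tested did. With a library left out, no member was called. The difference for Gal went from 0.25 (without Fracture Female 2) to 1.41 (without Fracture Male 2). That for Npy went from 0.44 (without Fracture+PDX Male 2) to 1.75 (without Fracture Male 2). Without Fracture+PDX Female 3 it was 0.42 for Nts and 1.12 for Crh, and without Fracture Male 2 it was 0.96 and 2.37. For Cck it went from -0.96 (without Fracture+PDX Female 1) to -0.57 (without Fracture+PDX Female 3).

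No member differed between the sexes past the test. Over the 3 groups, Female minus Male differences were -0.05 ± 0.49 for Gal, -0.32 ± 0.52 for Npy, -0.19 ± 0.33 for Nts, 0.13 ± 0.77 for Crh and 0.31 ± 0.28 for Cck in log2, with adjusted p of 0.790 or more (edgeR). Within groups the order of the sexes varied. The mean of Gal was 45.6 ± 53.4 CPM (SD, n = 3) in Fracture males and 20.4 ± 7.91 in Fracture females, against 29.2 ± 16.8 in Fracture+PDX males and 68.8 ± 25.7 in Fracture+PDX females. For Npy the Fracture+PDX means were 3.31 ± 3.55 in males and 6.04 ± 0.865 in females. The 3 Fracture+PDX females were above 2 of the 3 Fracture+PDX males for Gal, Npy and Crh, males 1 and 3 being the low ones. The PDX effect on Gal differed between the sexes by 2.39 ± 1.01 in log2, with an unadjusted p of 0.0351 and an adjusted p of 0.999, and by 0.77 without Fracture Male 2; no member passed an interaction test in any comparison.

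The spread between mice of a group was itself large. The SD of log2 CPM for Gal was 0.40 in Sham, 1.17 in Fracture and 0.93 in Fracture+PDX, beside a median SD over 21340 genes of 0.19, 0.17 and 0.17. For Npy it was 0.70, 1.17 and 1.22, and for Crh 1.02, 1.72 and 1.59. Nts and Cck were widest in Sham, at 0.86, 0.62 and 0.70 for Nts and 0.63, 0.47 and 0.51 for Cck. In Fracture, 94.9% of genes had a smaller SD than Gal and 99.0% a smaller SD than Crh, and for Cck the share was 77.9%. Among the 12 fracture libraries, Fracture Male 2 ranked first for Gal and Npy and 3rd for Nts and Crh, and Fracture+PDX Female 3 ranked first for Nts and Crh, second for Gal and 3rd for Npy.

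The mice with much Gal also had much Npy. Deviations of log2 CPM from the group mean correlated between Gal and Npy with a Pearson r of 0.89 over the 18 libraries (permutation within groups, p = 0.00017, adjusted 0.00127 over 15 relations) and a Spearman rho of 0.89 (permutation p = 8e-05, adjusted 0.0012). With Fracture Male 2 and Fracture+PDX Female 3, the 2 most extreme for Gal, left out, r was 0.85, and r was 0.92 in the 12 fracture libraries and 0.71 in the 6 Sham libraries. Gal and Crh gave r = 0.73 (permutation p = 0.00213, adjusted 0.00639) and rho = 0.67 (permutation p = 0.00656, adjusted 0.0294), and r was 0.56 without the same pair of libraries. Gal and Nts gave r = 0.58 (permutation p = 0.0105, adjusted 0.0226) and rho = 0.58 (permutation p = 0.0223, adjusted 0.0478), with r = 0.33 without that pair. Their r was 0.86 in the 12 fracture libraries and -0.20 in the 6 Sham libraries. Nts and Crh gave r = 0.38 (permutation p = 0.118, adjusted 0.176) and rho = 0.41 (permutation p = 0.108, adjusted 0.162). Npy and Nts gave r = 0.57 (permutation p = 0.0168, adjusted 0.0316) and rho = 0.56 (permutation p = 0.0281, adjusted 0.0526). The r of Npy and Nts was 0.83 in the 12 fracture libraries and 0.02 in the 6 Sham libraries. It was 0.35 without Fracture Male 2 and Fracture+PDX Male 1. Npy and Crh gave r = 0.66 (permutation p = 0.00755, adjusted 0.0189) and rho = 0.62 (permutation p = 0.0109, adjusted 0.0294), with r = 0.59 without the same libraries. For Cck no relation passed: its r with Gal was -0.04 (permutation p = 0.877, adjusted 0.877; rho = -0.12, permutation p = 0.649, adjusted 0.696). In the 6 Sham libraries alone its r was -0.69 with Gal, -0.81 with Npy and -0.67 with Crh, and in the 12 fracture libraries 0.11, 0.10 and -0.06.

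Atf3 is the transcription factor that marks neurons with injured axons. Its deviations correlated with those of Gal with r = 0.86 (permutation p = 8e-05, adjusted 0.0012) and rho = 0.82 (permutation p = 0.00059, adjusted 0.00442), and r was 0.88 without Fracture+PDX Male 1 and Fracture Male 1. With Npy the values were r = 0.79 (permutation p = 0.00094, adjusted 0.00352) and rho = 0.64 (permutation p = 0.0118, adjusted 0.0294), with r = 0.70 without that pair. Nts gave r = 0.68 (permutation p = 0.00042, adjusted 0.0021) and rho = 0.63 (permutation p = 0.0097, adjusted 0.0294), with r = 0.63 without the pair. Crh gave r = 0.49 (permutation p = 0.0898, adjusted 0.15) and rho = 0.54 (permutation p = 0.0363, adjusted 0.0605), which did not pass, and r = 0.75 without that pair, so that its value turned on them. Cck did not pass, at r = 0.06 (permutation p = 0.801, adjusted 0.858). In the 6 Sham libraries alone r was 0.06 with Gal, 0.05 with Npy, 0.62 with Nts and 0.48 with Crh, and in the 12 fracture libraries it was 0.90, 0.86, 0.85 and 0.51.

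**Figure D3:**
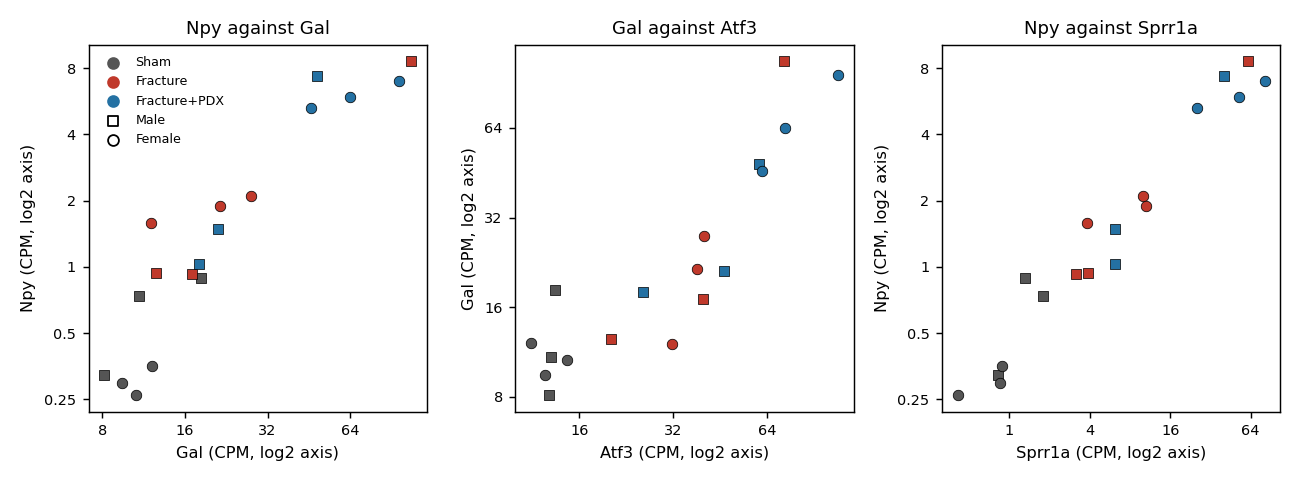
CPM in each of the 18 libraries on log2 axes, for Npy against Gal, Gal against Atf3 and Npy against Sprr1a, coloured by group, with squares for males and circles for females. The high Fracture male and 4 Fracture+PDX libraries lie together at the upper right in each panel, and the Sham libraries at the lower left.

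Over the 18 libraries, groups included, the genes most like Gal in log2 CPM were Mmp16 (r = 0.96), Sprr1a (0.94), Npy (0.94), Itga7 (0.93) and Sema6a (0.93). Those most like Npy were Sprr1a (0.98), Itga7 (0.96), Flrt3 (0.94), Gal (0.94) and Gm5152 (0.93). Sprr1a, a small proline-rich protein of regenerating axons, and Itga7, the laminin receptor subunit alpha 7, were thus in both sets. Nts was most like Ttyh1 (0.92), Flrt3 (0.90), Srxn1 (0.90), Atf3 (0.90) and Gpr151 (0.89), and Crh most like Gpr151 (0.90), Smim3 (0.89), Sox11 (0.89), Slc6a4 (0.88) and Sprr1a (0.87). Cck stood closest to 4933407K13Rik (0.79), 4933427I04Rik (0.77), Gm14342 (0.75), Gm44878 (0.72) and Gatd1 (0.71), none of which was among the genes most like another member. Part of each value comes from the difference between the groups.

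Of the 17 receptors for these peptides, 16 were tested and Galr3 was too low. Cckbr, the receptor that binds both cholecystokinin and gastrin, was the 1 of 16 called by edgeR, higher in Fracture+PDX, where 2.17% of all genes tested were called higher. The Sham libraries held 0.0499 to 0.340 CPM of Cckbr (median 0.224), the Fracture libraries 0.368 to 4.16 (median 0.874) and the Fracture+PDX libraries 0.592 to 4.92 (median 3.01), so that neither fracture group overlapped Sham, as for 0.915% and 1.46% of all genes tested. The counts of Cckbr in Sham were 4 to 24. The log2 fold change over Sham was 3.55 ± 0.49 in Fracture+PDX (adjusted p 0.00286, edgeR) and 2.36 ± 0.60 in Fracture (adjusted p 0.0544), the latter 1.73 without Fracture Male 2 and called without Sham Female 3 (2.69) or Fracture Female 1 (2.56). The Fracture+PDX call held in 8 of 8 other fits, and the Fracture change was called in 2 of 7, with no sex covariate and with all 18 libraries in 1 fit. On log2(FPKM + 1) the changes were 0.74 and 0.35 (limma), so their size depends on the scale. The highest Fracture value was again in Male 2 and the highest Fracture+PDX value in Female 3. The other 15 were not called in any comparison. The median over the 16 receptors was 0.14 and 0.05.

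**Figure D4:**
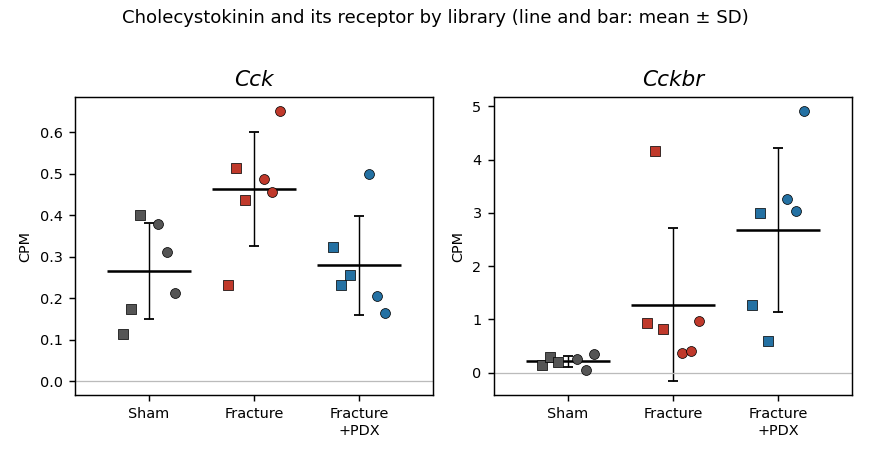
CPM of Cck (left) and its receptor Cckbr (right) in each library of the 3 groups, with squares for males, circles for females, a line at the mean and a bar for ± SD over 6 libraries. Cckbr lies at 0.0499 to 0.340 CPM in Sham and at 0.368 or more in both fracture groups, whereas Cck overlaps between the groups.

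Of 8 relatives of the members, 7 had a row and 2 were tested against Sham, Adcyap1 and Ucn2. Adcyap1, which encodes PACAP, the closest relative of VIP, was called in both comparisons, in which 1.09% and 2.17% of all genes tested were called higher. It rose by 0.78 ± 0.15 in Fracture (adjusted p 0.0283, edgeR) and by 0.92 ± 0.15 in Fracture+PDX (adjusted p 0.00941). The first call held in 6 of 12 fits with a library left out (0.70 to 0.90), and it was lost without Sham Male 2, Sham Male 3, Sham Female 2 or Fracture Male 2, Male 3 or Female 2; the second held in 12 of 12. The first was also lost with no filter (adjusted p 0.0526) and with the replicate block (0.133), and the second with the block (0.0752). Ucn2 was not called.

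All 13 genes of peptide processing and granule release were tested. In Fracture edgeR called 2 higher and none lower, beside 1.09% of all genes tested called higher: Chgb, a granin of the secretory granule, by 0.20 ± 0.04 (adjusted p 0.0304) and Cadps, a factor of granule release, by 0.14 ± 0.03 (adjusted p 0.0396). In Fracture+PDX it called 3 higher and none lower, beside 2.17%: Chgb by 0.21 ± 0.05 (adjusted p 0.0240), Pcsk2, a prohormone convertase, by 0.21 ± 0.05 (adjusted p 0.0407), and Vgf, a precursor of several secreted peptides, by 0.68 ± 0.12 (adjusted p 0.0122). With a library left out, the Chgb calls held in 4 and 7 of 12 fits, that of Cadps in 2, that of Pcsk2 in 5 and that of Vgf in 12. Of 9 other fits, Cadps in Fracture was lost in 4 (no sex covariate, the block and both limma fits, adjusted p 0.0578 to 0.0690) and Chgb in 1 (the block, 0.0963). In Fracture+PDX, Pcsk2 was lost in 3 (the block and both limma fits, adjusted p 0.0569 to 0.0827), Chgb in 2 (both limma fits, 0.0524 and 0.0509) and Vgf in 0. Each change was below 1 on the log2 scale. None of the 7 genes that clear or bind released peptides was called; Ece2 had 97.5 ± 3.92 CPM in Sham, 102 ± 2.57 in Fracture and 97.2 ± 3.64 in Fracture+PDX, and Ece1 84.7 ± 2.35, 90.2 ± 4.11 and 90.4 ± 2.56.

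Of 10 axon injury genes, edgeR called 6 higher in Fracture, where 1.09% of all genes tested were, and 7 in Fracture+PDX, where 2.17% were. None was called lower, and none was called between the 2 fracture groups. The 6 Fracture calls fell to between 2 and 5 with a library left out, 2 being left without Sham Male 2, Sham Male 3, Sham Female 1 or Fracture Female 3, and 3 without Sham Male 1, Sham Female 2 or Fracture Female 2. With no filter or in limma 3 of the 6 held, and with the replicate block 1 did, Flrt3. Of the 7 in Fracture+PDX, 6 or 7 held with a library left out and 5 with the block. Atf3 and Flrt3 were called in Fracture in each fit with a library left out, and Ecel1 and Sox11 in 2 of 12. Flrt3 rose by 0.91 ± 0.11 (adjusted p 0.00250) and 1.35 ± 0.21 (adjusted p 0.00683), and Atf3 by 1.65 ± 0.25 (adjusted p 0.0141) and 2.21 ± 0.26 (adjusted p 0.00260). Gadd45a rose by 0.76 ± 0.15 (adjusted p 0.0283) and 1.01 ± 0.17 (adjusted p 0.00871), and Sprr1a by 3.83 ± 0.81 (adjusted p 0.0405) and 4.93 ± 0.78 (adjusted p 0.0100). Without Fracture Male 2 the Fracture changes were 1.39 for Atf3, 2.60 for Sprr1a, 0.67 for Gadd45a and 0.82 for Flrt3, all still called. The Sprr1a call in Fracture held in 3 of the 12 fits with a library left out, those without Fracture Male 1, 2 or 3, and the Gadd45a call in 7. Sprr1a in Fracture was also lost with no filter (adjusted p 0.0636), the block (0.0681) and limma (0.0767 and 0.0533), Gadd45a with no filter (0.0518) and the block (0.130), and Atf3 with the block (0.0610). In Fracture+PDX the block lost Sprr1a (0.0521) and Gadd45a (0.0528). The 6 peptides of uninjured nociceptors were the counterpart, with 0 called in any comparison by edgeR. Calca, which encodes CGRP, had 851 ± 43.8 CPM in Sham, 834 ± 50.4 in Fracture and 801 ± 64.5 in Fracture+PDX, and Tac1, the precursor of substance P, had 190 ± 35.3, 185 ± 22.5 and 176 ± 19.5.

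In bulk tissue, fewer cells of a type and less RNA per cell cannot be told apart. The summed level of the 10 DRG neuron markers was 9811 to 10567 CPM in Sham, 10955 to 11522 in Fracture and 10535 to 12091 in Fracture+PDX, with 2 of 10 called higher in Fracture, Tubb3 and Nefh, and 2 in Fracture+PDX, Tubb3 and Rbfox3, beside 1.09% and 2.17% of all genes tested. The 5 satellite glia markers summed to 1029 to 1428, 1188 to 1309 and 1175 to 1414 CPM, overlapping throughout, with Kcnj10 called higher in Fracture+PDX. The 8 sympathetic markers summed to 75.6 to 144 CPM in Sham, 83.4 to 117 in Fracture and 76.0 to 118 in Fracture+PDX, nearly all of it Th, which sensory neurons also make. Of them Slc6a2, at 1.62 to 4.42 CPM in Sham and 0.321 to 1.93 in Fracture, and Gata3 fell in Fracture, and Gata3 fell in Fracture+PDX (-1.72 ± 0.30, adjusted p 0.00708, edgeR). Of all genes tested, 1.83% were called lower in Fracture and 2.32% in Fracture+PDX. Dbh was at 0.172 CPM in Fracture Male 2, the library with the most Npy, and at 0 to 0.103 in the other Fracture libraries. In Fracture+PDX Male 2, which had the most Npy of its group, Dbh was at 2.28 CPM, the highest of the 18, and Slc6a2 at 3.13, the highest of its group. Sympathetic neurons also make Npy, and their part in its values was not tested. The 8 placental markers summed to 158 to 506 CPM in Sham, 27.1 to 232 in Fracture, which overlapped Sham, and 26.5 to 123 in Fracture+PDX, which did not. Of them 2 were called lower in Fracture and 7 in Fracture+PDX, beside the 1.83% and 2.32% of all genes; their part in the results was not tested. The 8 macrophage markers summed to 104 to 121, 75.6 to 106 and 78.6 to 114 CPM, with 2 of 8 called lower in Fracture, Csf1r and Adgre1, and 1, Csf1r, in Fracture+PDX, beside the same shares of all genes; their part in the results was not tested. The 8 muscle markers summed to 24.4 to 594 CPM in Sham, 49.8 to 1148 in Fracture and 12.4 to 532 in Fracture+PDX, with 8 of 8 above 0 in log2 fold change in Fracture against Sham (median 2.11) and 0 of 8 in Fracture+PDX against Fracture (median -1.91). The 8 neutrophil markers summed to 75.1 to 336, 79.3 to 173 and 71.2 to 431 CPM, with 0 of 8 above 0 in Fracture against Sham (median -0.82) and 8 of 8 in Fracture+PDX against Fracture (median 1.13). The 5 red cell markers had medians of -0.53 in Fracture and -0.25 in Fracture+PDX against Sham. None of these genes was called in any comparison by edgeR, 7 of the 8 neutrophil markers had an unadjusted p under 0.05 in Fracture+PDX against Fracture, the sums overlapped between the groups, and their part in the results was not tested. The 9 central nervous system markers overlapped too, with 0 called. Each of these lists had at least 1 library above 3 counts for each of its genes.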

How the data were processed

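Poly(A), strand-specific, paired-end libraries of L3–L5 DRG from 18 mice (6 per group) were sequenced on the Illumina NovaSeq system. The authors deposited raw counts per gene, without normalization, and FPKM values, which are normalized for transcript length and library size. The submitters' processing notes name cutadapt 1.10, FastQC, HISAT2, StringTie and mm10, with no role given, and the counting program is not given in the sources used here. Columns named Con were read as Sham. Groups and sex came from the labels.

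Tests ran under R 4.3.3 in edgeR 4.0.16 (filterByExpr, minimum count 10, minimum total count 15, TMM, robust quasi-likelihood fits) on sex and group in the 12 libraries of each comparison, with Benjamini-Hochberg adjustment over all genes tested; calls are at an adjusted p under 0.05. Sex and sex-by-group terms used all 18 libraries. Members below the filter were compared on log2 CPM (prior count 2) by exact permutation, two-sided ( smallest p 0.00216 for 6 against 6). The closest pair of libraries of a group differed by a mean chi-square of 19.0 per gene, so none was a duplicate. DESeq2 1.42.0, limma 3.58.1 on log2(FPKM + 1) and log2(FPKM + 0.1), other scalings, filters and fits were alternatives, and the fits were tested on simulated data. Intervals are not given for single counts; at this depth, counts near 3 per library are the limit of detection. The members and gene lists were chosen with earlier results of these data known. Named were the 6 members, the genes called in each list (the 4 with the smallest p where more), otherwise the 2 with the highest mean CPM, and the 5 genes most like each member.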

Additional observations from a re-analysis of the deposited data

Results flagged for a closer look

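In 4 of the 17 sets of 6 libraries examined, 1 library stood far from the other 5 of its group. The rule was Dixon's ratio of the gap to the range, past its 95% critical value. That value is for normally distributed data and the ratio was taken on linear CPM, so the count is not set against a chance rate. The 4 sets are not independent: 3 of them flag the same library. The genes of those 3 sets correlated in the 12 fracture libraries (r = 0.83 to 0.92). Fracture Male 2 was such a library for 3 members: Gal at 107 CPM, with the next at 27.8 (ratio 0.83), Npy at 8.59 CPM, with the next at 2.10 (ratio 0.85), and Nts at 26.4 CPM, with the next at 13.8 (ratio 0.69). Fracture+PDX Male 2 was the other, with Vip at 0.654 CPM and the next at 0.0818 (ratio 0.87).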

How the results depend on the processing

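DESeq2 called 1511 genes in Fracture against Sham (edgeR 603), 1620 in Fracture+PDX against Sham (925), 15 between the fracture groups (0), 332 for sex (62), and 47, 18 and 3 for the interactions (0, 1 and 1), and Nts in Fracture then passed at 1.44. The replicate block (mice of the same sex and number) called 118 and 486 genes. It lost Npy in Fracture (2.19), and Gal (1.92), Npy (3.17) and Nts (2.11) in Fracture+PDX, and changed no other call of a member. The labels link same-numbered mice only by the number, so the block was not used in the main fits. The median correlation of their deviations was 0.02 over 18 pairs (-0.07 to 0.13), with 1 pair above 0.1. Over 36 pairs with other numbers it was -0.012 (-0.12 to 0.10), also with 1 pair above 0.1. Of 18 libraries, 9 correlated best with their own number. Whether same-numbered mice were handled together was not tested. Of the called genes, 37.3% were higher in Fracture (21.2% with the block, 26.5% and 27.9% with limma) and 48.3% in Fracture+PDX (35.5% and 36.7% with limma). Npy in Fracture was also lost with no filter (2.51) and with limma, at 1.30 with a pseudocount of 1 and 2.02 with 0.1. In Fracture+PDX, Nts was lost with no filter (2.08), Gal in 1 fit of all 18 libraries (2.09) and Crh in limma on log2(FPKM + 1) (0.85), and the untested Vip turned to 0.29 with no filter. The causes were not tested.

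Leaving out 1 library gave 213 to 710 genes in Fracture and 498 to 1008 in Fracture+PDX against Sham, 0 to 1 between the fracture groups, 24 to 86 for sex, and 0 to 1 and 1 to 2 for the interactions of Fracture with Sham and of Fracture+PDX with Fracture. Npy in Fracture was 1.70 to 2.73, and in Fracture+PDX Gal was 1.75 to 2.21, Nts 1.85 to 2.27 and Cck -0.17 to 0.34. Female minus Male differences, none called, crossed 0 for Gal (-0.24 to 0.51), Npy (-0.56 to 0.30), Nts (-0.35 to 0.0036) and Crh (-0.22 to 0.71). So did the uncalled interactions in Fracture against Sham for Gal (-1.39 to 0.67), Npy (-0.26 to 2.08), Nts (-0.42 to 0.57), Crh (-2.98 to 0.020) and Cck (-0.61 to 0.37), for Cck in Fracture+PDX against Sham (-0.94 to 0.039) and for Npy between the fracture groups (-0.13 to 3.15). Low counts limit what can be said of Vip (0 to 9 in all libraries but 1) and of Crh in Sham (0 to 12).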
